A study of Homo sapiens with 4 samples.

Results

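A readthrough transcript joins 2 neighbouring genes of the same strand in a single RNA. RNA polymerase II passes the 3' end of the upstream gene without cleavage and polyadenylation there, the intergenic stretch is removed by splicing, and exons of both genes remain in the RNA. Such transcripts carry the hyphenated names of their 2 parent genes. Because most of their exons are also exons of a parent, a short read inside a shared exon does not tell which RNA it came from, and only reads over the junction between the parents, or over exons that neither parent has, belong to the readthrough transcript alone.

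The gene table held 24014 genes, and 41 of them had a symbol of exactly 1 hyphen with the names on each side of it present as symbols of other genes. The 41 readthrough transcripts named 82 parent genes, and no parent was shared. Total RNA had been sequenced in 4 libraries of SK-N-SH, a human neuroblastoma cell line whose cultures mix adrenergic, neuroblast-like cells with mesenchymal, substrate-adherent ones. The 2 control libraries came from wild-type cells given an empty lentiviral vector, and the 2 AP1AR-DT_OE libraries from cells given a lentivirus with the long non-coding RNA AP1AR-DT (AC109347.1). The question addressed by the comparison was which genes change when this RNA is in excess. The labels did not say whether the libraries of a group came from separate cultures or infections, so p-values measure only the spread between these samples, which may be technical.

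The libraries held 21988065 to 26184599 counts. AP1AR-DT itself rose from 3 and 18 control counts to 680 and 1065 with AP1AR-DT_OE, a Log2FC (log2 fold change, AP1AR-DT_OE over control) of 6.63 with an adjusted p of 3.64e-21 in DESeq2. In edgeR the Log2FC was 6.60 and the adjusted p 0.39, which did not pass. The adrenergic markers PHOX2A, HAND2, GATA3, ISL1 and DBH and the mesenchymal markers PRRX1, FOSL1, VIM, CD44, YAP1 and FN1 were present in every library. PRRX1, a mesenchymal transcription factor, stood apart in control replicate 2 with 14724 counts against 1131 to 2432 in the other libraries. After normalization PRRX1 was also lower in both AP1AR-DT_OE libraries than in either control, with a Log2FC of -2.02 and a DESeq2 adjusted p of 0.431. In bulk RNA, a change in the share of a cell type and a change in RNA per cell cannot be told apart. Of the markers of other cell types, EPCAM was at 0 to 14 counts and KRT18 at 2120 to 2372, and PTPRC, CD3E, ALB and PECAM1, like the adrenergic marker TH, were not analysed here.

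All 41 readthrough transcripts matched a protein-coding gene of GENCODE v44 on GRCh37 that carried the annotation's readthrough tag, lay on the chromosome and strand of both parents and overlapped both. In 5 of the loci the annotated parents overlapped each other, and in the other 36 they were separated by 139 to 60265 bp, with a median of 3554 bp. Exonic bases that neither parent had made up a median of 4.42% of the readthrough transcript and ranged from none, in 11 of the 41, to 63.5%. Every one of the 41 had at least 1 intron found in neither parent, with a median of 3 and a maximum of 9. That intron is the feature that separates the readthrough RNA from its parents.

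The junctions of 6 loci that carry the results are printed 5' to 3' on the strand of transcription, from the GRCh37 genome with GENCODE v44 exons. The lower-case letters are the last 15 bases of an exon of the first parent and the capitals the first 15 bases of an exon of the second parent. Each junction belongs to an annotated coding transcript of the readthrough gene. RBM14-RBM4 is shown because it was the only readthrough transcript called, RNASEK-C17orf49 because its count was high and even, and the others because their counts moved between the readthrough transcript and a parent.
RBM14-RBM4: gtgacgtggtgaaagGCAAACGAATGCACG
RNASEK-C17orf49: cgcaaggaatacatgGTCGGAGAGATCTTC
TMEM189-UBE2V1: tctgcatcaccacagGAGTAAAAGTCCCTC
PPAN-P2RY11: gggaaatggatcgagGTGCCAAGTCCTGCC
ABHD14A-ACY1: cccttgaccttccagGAGCTGCTGTGGCTT
PTGES3L-AARSD1: atggatgatttggatTTCACCACCACCGTG

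On GRCh37 the RBM14-RBM4 junction joined chr11:66384514-66384528 to chr11:66410921-66410935 on the plus strand, across 26392 bp. The RNASEK-C17orf49 junction joined chr17:6917582-6917596 to chr17:6918381-6918395 on the plus strand, across only 784 bp. The TMEM189-UBE2V1 junction ran on the minus strand from chr20:48744512-48744526 to chr20:48713343-48713357, across 31154 bp. The PPAN-P2RY11 junction (chr19:10221684-10221698 to chr19:10224309-10224323) and the ABHD14A-ACY1 junction (chr3:52012376-52012390 to chr3:52019223-52019237) lay on the plus strand. The PTGES3L-AARSD1 junction lay on the minus strand, from chr17:41122306-41122320 to chr17:41116240-41116254.

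Of the 41 readthrough transcripts, 1 was called higher in AP1AR-DT_OE and 0 were called lower (DESeq2 Wald test, adjusted p under 0.05). Among all genes, 33 of 24014 were called, or 0.137%, 20 of them higher and 13 lower. At an unadjusted p under 0.05, 7 of the 41 passed, against 0.816% of all genes. The 4 libraries did not overlap by group in 8 of the 41, 4 higher (all genes: 6.59%) and 4 lower (all genes: 7.14%). That is 19.5% of the 41 against 13.7% of all genes. The median Log2FC of the 41 was -0.16, or 0 with the 10 transcripts absent from both libraries of 1 group set to the detection floor, against -0.03 over all genes.

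The single called transcript was RBM14-RBM4 (ENSG00000248643; GRCh37 chr11:66384097-66413940, plus strand). RBM14 encodes a transcriptional coactivator found in paraspeckles, RBM4 an RNA-binding regulator of splicing, and the joined RNA encodes a protein with parts of both. RBM14-RBM4 had 0 counts in both control libraries and 894 and 779 counts in AP1AR-DT_OE replicates 1 and 2. The groups therefore did not overlap, and both AP1AR-DT_OE libraries lay well above the floor of 12 counts, or 3 read pairs, that a count of 0 allows. The mean of 877 ± 147 normalized counts (SD, n = 2) was at least 76.5-fold higher than that floor averaged over the control libraries, with a DESeq2 adjusted p of 6.75e-12. The edgeR quasi-likelihood test gave an adjusted p of 0.188 for it, so the call depended on the test. It also depended on the replicate number: the adjusted p was 0.58 in DESeq2 and 4.8e-07 in edgeR with that number as a block.

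The parents of RBM14-RBM4 were abundant in all 4 libraries. RBM14 counts were 6206 and 4618 in control cells against 5756 and 4342 in AP1AR-DT_OE cells, and RBM4 counts were 4495 and 4561 against 3397 and 3420. After normalization the groups overlapped for both parents, with a Log2FC of -0.00 (SE 0.49) for RBM14 and -0.28 (SE 0.44) for RBM4. As a share of the counts of the 3 genes together, however, RBM4 was lower in each AP1AR-DT_OE library than in either control. The RBM14 share overlapped between the groups. Whether counts moved from RBM4 to the readthrough row was not tested. The readthrough transcript took 8.90% (95% Wilson interval over read pairs 7.86% to 10.1%) and 9.12% (7.98% to 10.4%) of the counts of the 3 genes together in the AP1AR-DT_OE libraries. In the controls its 0 of 10701 and 0 of 9179 counts allowed shares of up to 0.112% and 0.131%. These intervals and floors cover counting error only. The sum of the 3 genes had a Log2FC of 0.02 (SE 0.46).

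MEF2BNB-MEF2B came next, with an adjusted p of 0.0538 in DESeq2. MEF2BNB (also BORCS8) encodes a subunit of the lysosome-positioning BORC complex and MEF2B a MADS-box transcription factor. The readthrough transcript was at or under the floor in the controls, with counts of 3 and 1, and reached 112 and 16 with AP1AR-DT_OE. MEF2B went the other way, from control counts of 101 and 114 to 0 and 86, and the groups did not overlap for either RNA. For MEF2B, however, control replicate 2 and AP1AR-DT_OE replicate 2 lay close together after normalization. MEF2BNB stayed between 476 and 644 counts. The library with the most MEF2BNB-MEF2B, AP1AR-DT_OE replicate 1, was the one with no MEF2B, and the locus sum had a Log2FC of -0.03 (SE 0.49). The DESeq2 adjusted p of the readthrough transcript was 0.0202 without AP1AR-DT_OE replicate 2, and 0.141 and 0.669 without control replicates 1 and 2. Without AP1AR-DT_OE replicate 1 its DESeq2 Log2FC was 2.95, against 5.13 with all libraries. The edgeR test, run on all libraries, did not call the readthrough transcript and gave an unadjusted p of 0.00902.

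**Figure D1:**
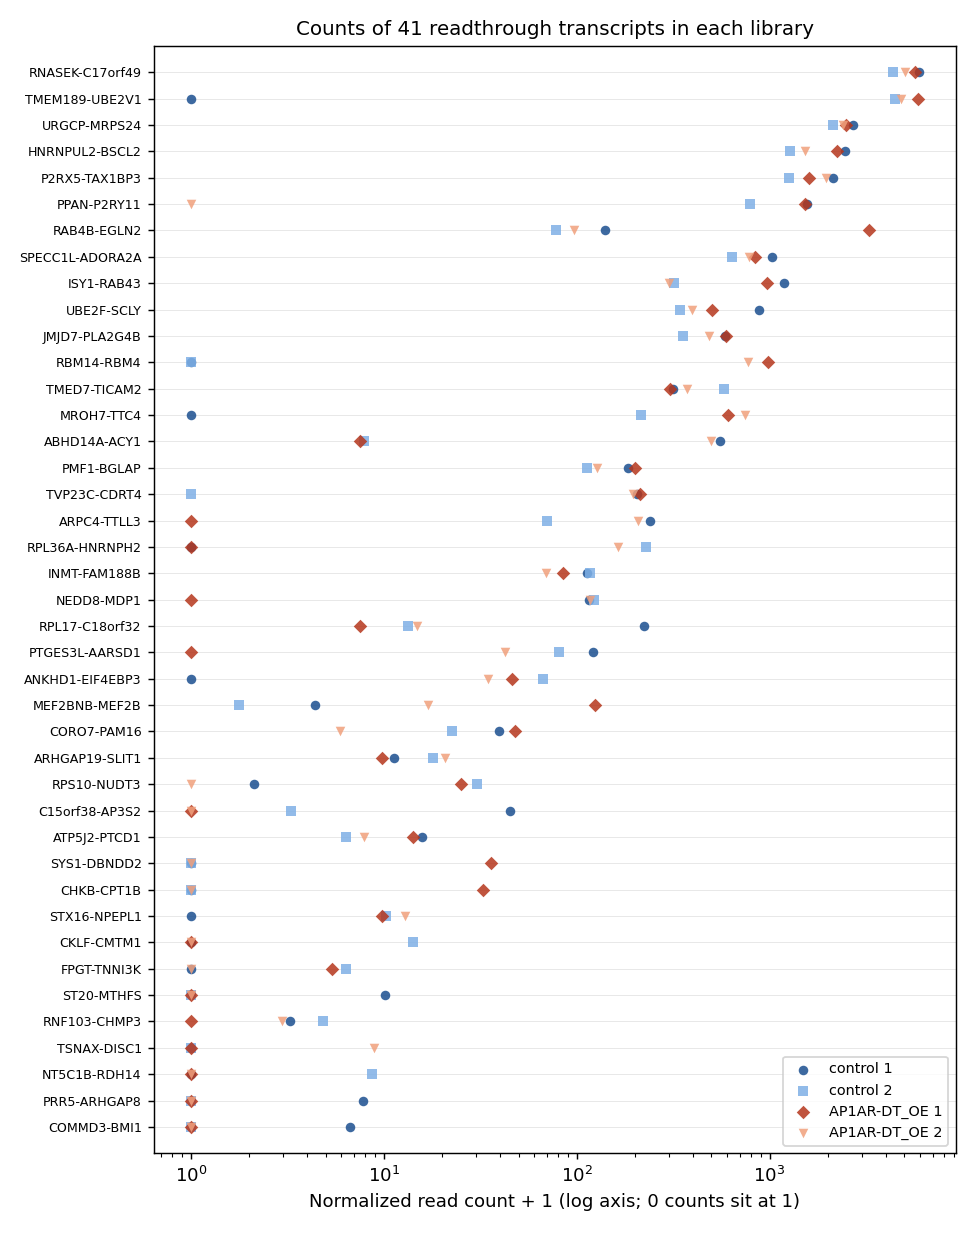
Normalized read count plus 1 (log axis) of the 41 readthrough transcripts, ordered by mean, with a symbol for each of the 4 libraries; points at 1 are counts of 0. RBM14-RBM4 has both controls at 0 and both AP1AR-DT_OE libraries at 773 and 981, while TMEM189-UBE2V1, PPAN-P2RY11, TVP23C-CDRT4 and others have a single library at 0 beside libraries at high counts.

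The 41 readthrough transcripts covered a wide range of levels. Mean normalized counts ran from 1.42 to 5255, with a median of 88.3. Of the 41, 18 were above 0 in all 4 libraries and 23 were at 0 in at least 1, and 8 (PRR5-ARHGAP8, RNF103-CHMP3, NT5C1B-RDH14, STX16-NPEPL1, FPGT-TNNI3K, ST20-MTHFS, COMMD3-BMI1 and TSNAX-DISC1) lay at or under the floor throughout. In the controls 12 and 8 of the 41 were at 0, and in AP1AR-DT_OE 12 and 11. A count of at least 10 in 2 libraries, the lower limit tried as an alternative, was reached by 30 of the 41.

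Several readthrough rows held high counts that were even across the libraries. Such counts can include reads of exons shared with a parent, and junction reads were not counted apart. RNASEK-C17orf49 joins RNASEK, a small membrane protein associated with the vacuolar proton pump, to C17orf49, a chromatin-associated protein, and had 5230, 5650, 5150 and 5095 counts in control 1, control 2, AP1AR-DT_OE 1 and AP1AR-DT_OE 2. It held 94.4% to 96.5% of the counts of its locus, and its Log2FC was 0.05 (SE 0.44). RNASEK had 280, 297, 136 and 180 counts in the same order, and C17orf49 had 0, 38, 51 and 29. The readthrough row was thus the main row of this locus in every library.

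URGCP-MRPS24, whose second parent encodes a protein of the small mitochondrial ribosomal subunit, had 2383, 2761, 2263 and 2407 counts and a Log2FC of 0.01 (SE 0.43). It took 34.6% to 42.6% of its locus. The annotated URGCP-MRPS24 transcript is only 0.795 kb long, without an exonic base of its own, against 5.66 kb for URGCP, so per kb of transcript its mean level of 3055 normalized counts stood above the 673 of URGCP and the 90.8 of MRPS24.

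HNRNPUL2-BSCL2, also without an exonic base of its own, had 2159, 1652, 2048 and 1530 counts and a Log2FC of 0.01 (SE 0.50). HNRNPUL2 encodes a nuclear RNA-binding protein and BSCL2 seipin, a lipid droplet protein of the endoplasmic reticulum. P2RX5-TAX1BP3, which joins an ATP-gated ion channel gene to a PDZ-domain gene, had 1870, 1631, 1455 and 1977 counts with a Log2FC of 0.07 (SE 0.47). P2RX5 itself had only 30 to 54 counts and TAX1BP3 8793 to 9449. SPECC1L-ADORA2A, which joins a cytoskeletal gene to an adenosine receptor gene, had 901, 823, 763 and 783 counts with a Log2FC of -0.04 (SE 0.48), and ADORA2A itself had 39 to 58. In these loci the groups of the readthrough transcript overlapped, and the differences between the group means were within the spread between replicates.

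JMJD7-PLA2G4B, outside the rule for named genes and picked after its values were seen, was a further even locus. It had 515, 462, 539 and 489 counts and took 91.8% to 99.4% of its locus, while JMJD7, a hydroxylase gene, had 0 to 46 counts and PLA2G4B, a cytosolic phospholipase A2 gene, 0 to 32.

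Levels were compared between genes per kb of the longest annotated transcript, in the 39 loci whose 3 genes summed to a mean of at least 100 normalized counts. The readthrough transcript was above both parents in 9 loci, between them in 11 and below both in 19. The median share of the readthrough transcript in the per-kb sum was 8.11%. The 9 loci were TMEM189-UBE2V1, RNASEK-C17orf49, JMJD7-PLA2G4B, PPAN-P2RY11, TMED7-TICAM2, INMT-FAM188B, UBE2F-SCLY, TVP23C-CDRT4 and URGCP-MRPS24. Among them, the readthrough count was 0 in control 1 for TMEM189-UBE2V1, AP1AR-DT_OE 2 for PPAN-P2RY11 and control 2 for TVP23C-CDRT4. These levels rest on counts that can include reads of shared exons. The transcript lengths come from an annotation that may differ from the one used in counting.

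**Figure D2:**
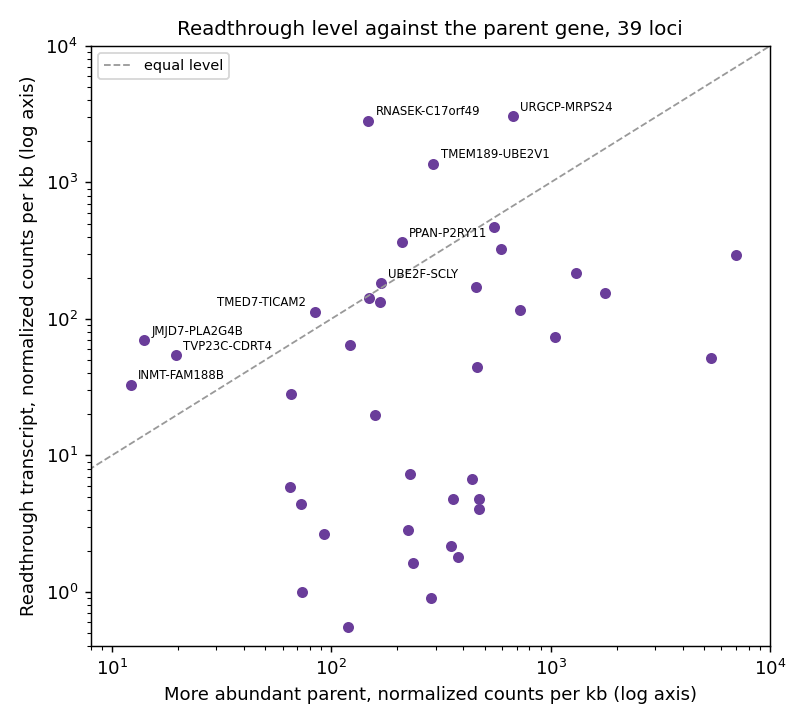
Mean level over the 4 libraries of each readthrough transcript (vertical axis) against its more abundant parent (horizontal axis), both in normalized counts per kb on log axes, 1 point for each of 39 loci; the dashed line marks equal levels. The 9 named points above the line are the readthrough transcripts above both parents, and most of the others lie far below it.

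Within a locus, the division of counts between the readthrough transcript and its parents often changed more from library to library than the sum did. In the 39 loci the readthrough share averaged 0.127% to 95.5% of the locus counts, with a median of 6.33%, and it was under 10% in 21 loci, 10% to 50% in 10 and over 50% in 8. It moved by less than 5 percentage points across the 4 libraries in 16 loci and by more than 25 points in 12. In 8 of those 12 the highest locus sum was less than 2 times the lowest, and in the other 4 (TMED7-TICAM2, RPL17-C18orf32, PPAN-P2RY11 and RAB4B-EGLN2) it was 2.16 to 4.60 times the lowest. Over the 39 loci this ratio had a median of 1.58. The median difference in share between the groups, AP1AR-DT_OE minus control, was -0.0113 percentage points over the 39 loci. The median share within a library was 3.28% in control 1, 3.55% in control 2, 5.47% in AP1AR-DT_OE 1 and 5.38% in AP1AR-DT_OE 2. By that summary the groups did not overlap. Each of these medians was the share of a different locus, however, so they do not follow a locus between libraries as the median difference does. No test was made on shares, since an exact permutation of 2 libraries against 2 cannot pass 0.05.

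TMEM189-UBE2V1 (ENSG00000124208) showed the largest counts of this kind. TMEM189 (also PEDS1) encodes the desaturase that makes plasmalogens, and UBE2V1 an E2-like partner of the ubiquitin-conjugating enzyme UBE2N. The readthrough transcript had 0, 5801, 5344 and 4852 counts in control 1, control 2, AP1AR-DT_OE 1 and AP1AR-DT_OE 2, and TMEM189 had 5701, 1056, 881 and 734. Control replicate 1 alone had none of the readthrough transcript and had more than 5 times the TMEM189 count of any other library. UBE2V1 stayed at 26 to 51 counts, and the locus sum had a Log2FC of 0.07 (SE 0.43). By group, TMEM189-UBE2V1 had a Log2FC of 1.25 (SE 3.74) and TMEM189 of -2.11 (SE 0.70), with DESeq2 adjusted p of 1.00 and 0.929. Without control replicate 2 the DESeq2 adjusted p of TMEM189-UBE2V1 became 2.09e-09, so 1 library decided it.

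PPAN-P2RY11 switched in a different library. PPAN encodes a ribosome biogenesis protein and P2RY11 a purinergic receptor for ATP. The readthrough transcript had 1370, 1022, 1391 and 0 counts, and PPAN had 6, 0, 2 and 782. AP1AR-DT_OE replicate 2 was the only library with PPAN counts above the floor and the only one without the readthrough transcript, while P2RY11 had 191 to 522 counts. The locus sum had a Log2FC of -0.04 (SE 0.55) and ran in step with the replicate number, with 2162 and 2071 normalized counts in the replicates numbered 1 and 962 and 966 in those numbered 2. The readthrough transcript was not called with all 4 libraries, and its DESeq2 adjusted p was 8.57e-06 without AP1AR-DT_OE replicate 1.

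RAB4B-EGLN2 switched in AP1AR-DT_OE replicate 1. RAB4B encodes a small GTPase of recycling endosomes and EGLN2 a prolyl hydroxylase of hypoxia-inducible factors. The readthrough transcript had 122, 100, 2991 and 97 counts, and EGLN2 had 3606, 2269, 539 and 2816. The share of the readthrough transcript was 76.5% (95% Wilson interval 73.7% to 79.0%) in AP1AR-DT_OE replicate 1 and 2.92% to 3.55% in the other 3 libraries. RAB4B held between 381 and 451 counts. The fitted Log2FC of the readthrough transcript, 3.97 (SE 1.81), rested on that single library and was -0.17 without it. Without AP1AR-DT_OE replicate 2 the DESeq2 adjusted p was 6.37e-09.

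ABHD14A-ACY1, outside the rule for named genes and picked after its values were seen, switched in 1 library of each group. ACY1 encodes an aminoacylase that frees amino acids from their N-acetyl forms, and ABHD14A an alpha/beta hydrolase. The readthrough transcript had 487, 9, 6 and 498 counts and ACY1 had 99, 521, 531 and 51. ABHD14A stayed at 1041 to 1180. Control replicate 1 and AP1AR-DT_OE replicate 2 were the libraries with the readthrough counts, so the pattern followed neither the group nor the replicate number, and the Log2FC was -0.16 (SE 2.67).

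**Figure D3:**
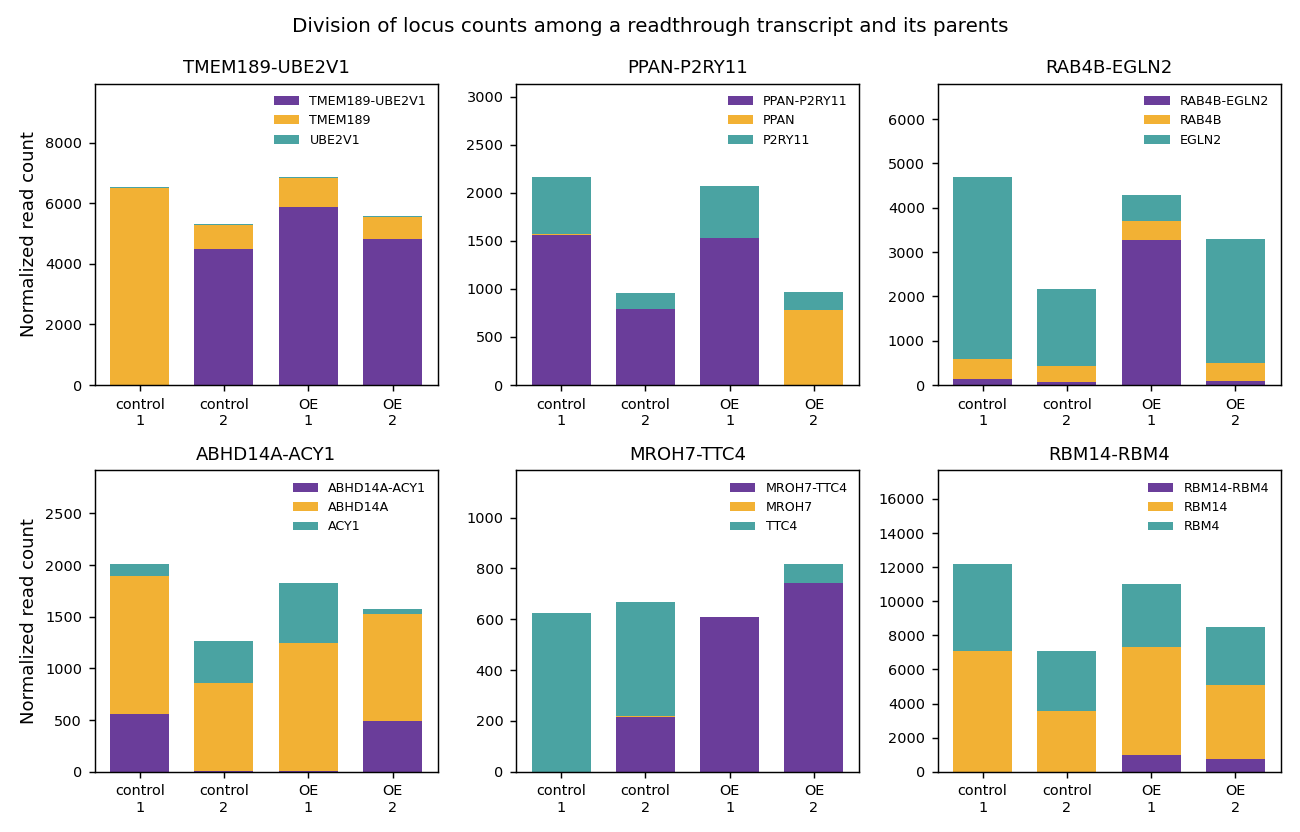
Normalized read counts of a readthrough transcript (purple), its first parent (yellow) and its second parent (green), stacked for each library of 6 loci; OE stands for AP1AR-DT_OE and the vertical axes start at 0. In TMEM189-UBE2V1, PPAN-P2RY11, RAB4B-EGLN2, ABHD14A-ACY1 and MROH7-TTC4 the readthrough part comes and goes as a parent does the opposite. In RBM14-RBM4 it is present in the AP1AR-DT_OE libraries and at 0 in the controls. The RBM4 share of that locus is lower in each AP1AR-DT_OE library than in either control.

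In MROH7-TTC4 the readthrough transcript was higher in both AP1AR-DT_OE libraries. It had 0, 279, 554 and 748 counts, and TTC4, a co-chaperone gene, had 547, 584, 0 and 76. The groups did not overlap for either RNA. MROH7 was at 0 in 3 libraries and at 3 counts in control replicate 2, so the readthrough row held counts where its first parent had none. The Log2FC was 2.65 (SE 3.09) for MROH7-TTC4, with a DESeq2 adjusted p of 1.00, and 0.14 (SE 0.46) for the locus sum. AP1AR-DT_OE replicate 1 had all of its locus counts in the readthrough row and control replicate 1 had none there. Without control replicate 2 the DESeq2 adjusted p of MROH7-TTC4 was 1.75e-05.

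PTGES3L-AARSD1 moved in the other direction. AARSD1 encodes an editing enzyme for mischarged alanine tRNA, and PTGES3L a relative of a co-chaperone. The readthrough transcript had 106, 104, 0 and 42 counts and AARSD1 had 9, 50, 142 and 141. The readthrough transcript was lower and AARSD1 higher in both AP1AR-DT_OE libraries than in either control. AARSD1 had the lowest p of the 82 parents, with a Log2FC of 2.58 (SE 0.77) and a DESeq2 adjusted p of 0.356, and the locus sum had a Log2FC of 0.39 (SE 0.52). Without AP1AR-DT_OE replicate 2, PTGES3L-AARSD1 had a DESeq2 adjusted p of 0.0356. INMT-FAM188B also lay lower in both AP1AR-DT_OE libraries, with 98, 150, 77 and 69 counts. FAM188B (also MINDY4, a deubiquitinase gene) had 36, 15, 41 and 78, INMT had 0 to 4, and the readthrough transcript had a Log2FC of -0.57 (SE 0.64) with a DESeq2 adjusted p of 1.00.

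TVP23C-CDRT4 had 179, 0, 193 and 197 counts, and CDRT4 had 0, 254, 0 and 0. Control replicate 2 was the only library with CDRT4 and the only one without the readthrough transcript, whose DESeq2 adjusted p was 0.000484 without control replicate 1. ISY1-RAB43, which joins a spliceosome gene to a small GTPase gene, had 1042, 411, 886 and 302 counts, with the 2 replicates numbered 1 above the 2 numbered 2. ISY1 had 391, 1159, 0 and 812 counts, the reverse order, and RAB43 had 391 to 758. UBE2F-SCLY, which joins a NEDD8-conjugating enzyme gene to the selenocysteine lyase gene, had 774, 446, 456 and 398 counts and a Log2FC of -0.45 (SE 0.56). Its control replicate 1 was high, and in that library UBE2F and SCLY had their lowest counts, 201 and 179.

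Another 3 loci, picked after their values were seen, differed between libraries in other ways. RPL17-C18orf32, whose first parent encodes a ribosomal protein, had 196, 16, 6 and 14 counts, and C18orf32 had 3, 988, 256 and 589, with the most readthrough counts in the library with the fewest C18orf32 counts. TMED7-TICAM2, which joins a gene of a cargo receptor to that of a Toll-like receptor adaptor, had 278, 753, 277 and 376 counts, and TMED7 had 0, 1077, 0 and 493, so both were highest in control replicate 2 and the locus sum moved with them. RPL36A-HNRNPH2 had 0, 294, 0 and 164 counts beside HNRNPH2 counts of 799, 1889, 715 and 1066, and was the only one of the 41 at 0 in both replicates numbered 1 and above 0 in both numbered 2.

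A pattern of 0 counts in at least 1 library and at least 100 in another, chosen after values had been seen, occurred in 9 of the 41 readthrough transcripts (22.0%), against 0.354% of all genes in the table. The 9 were TMEM189-UBE2V1, PTGES3L-AARSD1, PPAN-P2RY11, RBM14-RBM4, ARPC4-TTLL3, NEDD8-MDP1, RPL36A-HNRNPH2, TVP23C-CDRT4 and MROH7-TTC4. Of the 82 parents 6 showed it (MEF2B, PPAN, TMED7, CDRT4, ISY1 and TTC4), and of the 41 locus sums 0 did. A sum is at 0 only where the readthrough transcript and both parents are, so the sums could hardly show the pattern. Of the 11 readthrough transcripts without an exonic base of their own, 3 showed it, and of the other 30, 6 did.

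Replicates of the same group differed by a larger median ratio in the readthrough transcripts than in the locus sums. These sets were not matched by locus or by level. The median of the mean normalized counts was 1336 in the 41 sums and 88.3 in all 41 readthrough transcripts. Among genes with a mean of at least 50 normalized counts, the absolute log2 ratio between the libraries of a group (counts plus 1, averaged over the groups) had a median of 1.80 in 23 readthrough transcripts, 0.580 in 60 parents, 0.462 in the 41 locus sums and 0.577 in 13298 genes. It was over 1, a change of 2 times, in 12 of the 23 readthrough transcripts, in 17 of the 60 parents, in 7 of the 41 sums and in 19.3% of all genes. Across these 23 transcripts, which share libraries, the spread had a Spearman rho of -0.40 with the percent of exonic bases not in a parent.

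**Figure D4:**
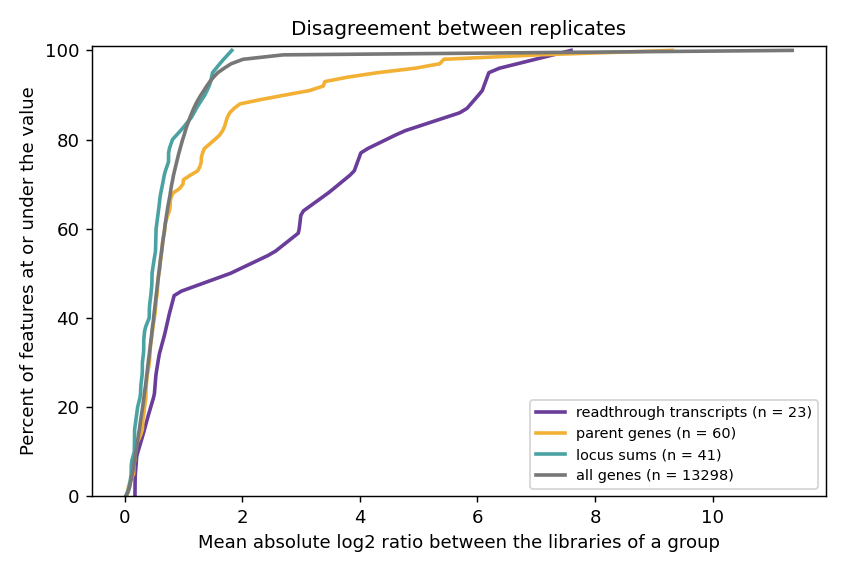
Cumulative percent of features (vertical axis) by the mean absolute log2 ratio between the 2 libraries of a group (horizontal axis), for features with a mean of at least 50 normalized counts. The curve of the readthrough transcripts lies to the right, with a median of 1.80, and the curve of the locus sums follows that of all genes, with medians of 0.462 and 0.577.

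The parents and the locus sums gave no call. In DESeq2, 0 of the 82 parents passed an adjusted p under 0.05 (all genes: 0.137%) and 4 an unadjusted p under 0.05 (AARSD1, CMTM1, TMEM189 and SCLY; all genes: 0.816%), and edgeR also called 0, with 3 at an unadjusted p under 0.05. The 4 libraries did not overlap by group in 16 of the 82 parents (19.5%, against 13.7% of all genes). When each readthrough transcript and its parents were replaced by their sum, 0 of the 41 sums were called by DESeq2 or edgeR and 0 had an unadjusted p under 0.05, against 0.134% called in that table of 23932 features. The Log2FC of the sums ran from -0.56 to 0.41 with a median of -0.01, and the groups did not overlap in 6 of the 41 (14.6%, near the 13.7% of all genes).

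The factors that cut and polyadenylate pre-mRNA, and so end transcription between neighbouring genes, gave no call. All 26 genes listed for this process were in the table, among them subunits of CPSF and CstF, the cleavage factors NUDT21, CPSF6, PCF11 and CLP1, the poly(A) polymerases PAPOLA and PAPOLG, the exonuclease XRN2, and SCAF4 and SCAF8, which suppress early polyadenylation. Of the 26, 0 were called by DESeq2 (all genes: 0.137%) and 0 had an unadjusted p under 0.05, and 0 were called by edgeR. Their Log2FC ran from -0.31 (SCAF8) to 0.42 (PAPOLG) with a median of 0.01. The groups did not overlap in 3 of them (CSTF2T, SCAF8 and SSU72), or 11.5%, below the 13.7% of all genes.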

How the data were processed

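The data were RNA-seq of 4 SK-N-SH libraries, 2 control and 2 AP1AR-DT_OE, grouped by their titles. The titles were followed where other labels disagreed, as in the RNA's version suffix in AP1AR-DT_OE replicate 2. The deposited counts per gene are whole numbers, without normalization. Sources differ on how the authors made them: the study's methods name HISAT2 and StringTie with its Python script on hg19, and the submitters' processing notes name TopHat2 2.0.4, SAMtools, HTSeq, Cuffdiff and edgeR 2.6.12 on hg19. HTSeq in its usual mode drops reads that fit several genes and StringTie divides them, so the division of counts within a locus depends on which was used. Readthrough rows without an exonic base of their own in GENCODE v44 still held counts. In control 2, TMEM189-UBE2V1 had 5801 and URGCP-MRPS24 had 2761. Which tool made the counts was not tested. The annotation is not given in the sources used here, and neither is whether counting used the strand, so overlapping genes are uncertain. The deposited table also holds the authors' fold changes and p-values, which were not used.

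Low counts piled up at 4 and 8, so a read pair was taken as worth 4 counts and the floor as 12. Counts were fitted over all 24014 genes in DESeq2 1.42.0 (R 4.3.3; median-of-ratios size factors, Wald test, two-sided, Benjamini-Hochberg adjustment, called at an adjusted p under 0.05). Normalized counts are counts over size factors, with mean ± SD over n = 2. The locus sums were fitted in a table in which they replaced their 3 genes. Shares are percent of locus counts, with Wilson intervals on counts divided by 4. Transcript lengths, junctions and coordinates came from GENCODE v44 on GRCh37, in which 23954 genes matched by ID. The libraries of a group differed far beyond sampling noise, so none was a duplicate.

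Results were recomputed with the edgeR 4.0.16 quasi-likelihood test, TMM factors, a filter of 10 counts in 2 libraries, no independent filtering, the replicate number as a block, counts divided by 4, each library left out, membership by position, and per-kb shares. The 16 transcripts named by rule were those called, those at the floor in 1 group only, the 10 highest, the 5 largest rises and falls without overlap at a mean of at least 50 normalized counts, and the 5 largest share differences. Members and lists were chosen with earlier results of these data known.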

Additional observations from a re-analysis of the deposited data

How the results depend on the processing

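DESeq2 called 1 readthrough transcript, RBM14-RBM4. The count was 0 in edgeR (4 at an unadjusted p under 0.05), 2 with TMM factors in DESeq2 (MEF2BNB-MEF2B added) and 2 to 6 with a library left out, RBM14-RBM4 among them each time. The calls gained were MROH7-TTC4, RPL17-C18orf32 and TMEM189-UBE2V1 without control replicate 2, TVP23C-CDRT4 without control replicate 1, PPAN-P2RY11 without AP1AR-DT_OE replicate 1, and ARPC4-TTLL3, MEF2BNB-MEF2B, NEDD8-MDP1, PTGES3L-AARSD1 and RAB4B-EGLN2 without AP1AR-DT_OE replicate 2. In these fits the lone library of a group was assumed to vary like the other group. Parents called were 0, and 0 to 4 with a library left out. AP1AR-DT had a Log2FC of 6.60 with an adjusted p of 0.39 in edgeR, and 6.02 to 8.05 with a library left out. The cause was not tested. Locus sums and cleavage genes gave 0 calls throughout.

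Same-numbered libraries deviated together from their group means (correlation 0.490 over 13298 genes), but with 2 pairs and no batch in the labels they share only a number. With the replicate number as a block, readthrough calls were 0 in DESeq2 (4 at an unadjusted p under 0.05) and 2 in edgeR (MEF2BNB-MEF2B and RBM14-RBM4), and parents called were 0 in DESeq2 (5 unadjusted) and 1 in edgeR (AARSD1). AP1AR-DT kept its call, with a Log2FC of 6.75 and 6.70. The block turned the Log2FC of the URGCP-MRPS24 sum from -0.013 to 0.017 in DESeq2 and 0.011 in edgeR. With the block the INMT-FAM188B sum was 0.0045 in DESeq2 and -0.0016 in edgeR, signs that both tools also gave without it (5.3e-05 and -0.0032).

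Of 352 alternative Log2FC of the named transcripts and their sums, 299 kept direction and call, 9 gained a call, 2 lost it (RBM14-RBM4) and 42 changed sign, with no call before or after. Values near 0 turned with scaling: the INMT-FAM188B sum was -0.0032 in edgeR, -0.0088 with TMM factors and -0.0090 with counts divided by 4, and URGCP-MRPS24 was -0.00014 with TMM factors. Leaving out a library gave Log2FC of -0.38 to 0.56 for HNRNPUL2-BSCL2, -1.33 to 1.01 for ISY1-RAB43, -0.25 to 0.50 for P2RX5-TAX1BP3, -12.7 to 0.37 for PPAN-P2RY11, -0.17 to 4.92 for RAB4B-EGLN2, -0.14 to 0.30 for RNASEK-C17orf49, -0.34 to 0.35 for SPECC1L-ADORA2A, -0.97 to 0.38 for UBE2F-SCLY and -0.15 to 0.19 for URGCP-MRPS24. For locus sums it gave -0.29 to 0.29 for HNRNPUL2-BSCL2, -0.12 to 0.14 for INMT-FAM188B, -0.30 to 0.32 for MEF2BNB-MEF2B, -0.10 to 0.34 for MROH7-TTC4, -0.13 to 0.39 for P2RX5-TAX1BP3, -0.70 to 0.66 for PPAN-P2RY11, -0.30 to 0.80 for RAB4B-EGLN2, -0.31 to 0.46 for RBM14-RBM4, -0.17 to 0.27 for RNASEK-C17orf49, -0.10 to 0.22 for TMEM189-UBE2V1 and -0.29 to 0.35 for URGCP-MRPS24. The median share difference was -0.205 to 0.326 percentage points.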

Other observations

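The annotation's readthrough tag was carried by 146 further genes of the table whose symbols do not name 2 parents. Of these, 23 (15.8%) had 0 counts in at least 1 library and at least 100 in another, against 0.222% of the genes with neither the tag nor a symbol that names both parents, a pattern that was chosen after values had been seen. DESeq2 called 10 of the 146 (6.85%, against 0.137% of all genes), and 4 of those 10 had counts in 1 library only. CTC-435M10.3 had 1298 counts in control replicate 1 and 0 in the other libraries, and CTD-2132N18.3 had 783 counts in AP1AR-DT_OE replicate 1 and 0 elsewhere. The row with the symbol TUBB3 and the identifier ENSG00000198211 had 930 counts in AP1AR-DT_OE replicate 2 alone. The row with the identifier ENSG00000270299 was the most abundant of the 10, with control counts of 7 and 3 against 2582 and 1902 in AP1AR-DT_OE. Single-library counts of this kind were called although the other library of the same group was at 0.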
